A study of Mus musculus with 6 samples.

Results

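The 10 genes described here encode proteins of the ribbon synapse and its active zone: Ctbp2, Bsn, Pclo, Rims2, Erc2, Unc13b, Cplx3, Cplx4, Stx3 and Slc17a7. They were taken from the table of gene counts by their symbols, out of 31169 genes, and all 10 were among the 17707 genes with enough reads to be tested. Poly(A) RNA was sequenced in 3 libraries of whole retina from saline-injected C57BL/6 mice and 3 from microbead-injected C57BL/6 mice. All mice were injected into the anterior chamber at 1 month of age, with 1 µl of saline or of 15 µm microbeads per the sample labels. The study's methods give a larger volume, the same for saline and microbeads. Retinas were taken 4 weeks later, at 2 months of age. The beads obstruct aqueous outflow and raise the intraocular pressure, which is the model of glaucoma. No group carries a genetic change, every control eye was injected as well, and the mice were male with both eyes injected per the study's methods.

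Photoreceptors and bipolar cells release glutamate continuously, at a rate graded with their membrane potential. Their terminals hold a synaptic ribbon, a plate of protein that tethers vesicles above the release site. The ribbon is built mainly from RIBEYE, a product of the Ctbp2 gene. Bassoon anchors the ribbon to the active zone, and a shorter variant of piccolo is found at ribbons. RIM and ELKS proteins organise calcium channels and release sites at the active zone. Munc13 proteins prime the vesicles, and complexins and syntaxins act in fusion. Ribbon terminals use particular family members, such as complexins 3 and 4 in place of 1 and 2 and syntaxin 3, so the conventional family members are given beside them as partners.

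Total counts ran from 36085737 to 46481382 in the saline libraries and from 13574949 to 19834366 in the microbead libraries. The mitochondrial genome took 3.19 to 3.57% of the counts in saline retina and 8.90 to 10.6% in microbead retina. The library names in the labels share 1 prefix in saline retina and a different prefix in microbead retina, so that a difference that goes with these names and a difference between injections cannot be told apart. Markers of photoreceptors, bipolar cells, amacrine cells, ganglion cells and Müller glia were present in all 6 libraries, as in whole retina. In whole tissue, fewer cells of a type and less RNA per cell cannot be told apart. The labels do not say whether the libraries of a group came from separate animals, and the p-values measure only the spread between these samples.

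The sequences below are the 250 bases before the start site of 3 members, from RefSeq on GRCm38.p6, printed on the strand of each gene from 5′ to 3′. Ctbp2 is shown because its ribbon product begins at a start site of its own, and Erc2 and Slc17a7 because they are the 2 members whose saline and microbead values did not overlap. The Ctbp2 window covers chr7:133015248-133015497 (minus strand), the Erc2 window chr14:27622157-27622406 (plus strand) and the Slc17a7 window chr7:45163671-45163920 (plus strand). Capitals mark TAATCC, the core recognised by CRX and OTX homeodomain proteins, or its reverse complement GGATTA.
Ctbp2: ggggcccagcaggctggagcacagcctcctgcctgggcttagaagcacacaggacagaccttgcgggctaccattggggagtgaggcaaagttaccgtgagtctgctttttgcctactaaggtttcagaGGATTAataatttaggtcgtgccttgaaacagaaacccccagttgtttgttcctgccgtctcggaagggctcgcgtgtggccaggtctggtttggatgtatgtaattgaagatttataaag
Erc2: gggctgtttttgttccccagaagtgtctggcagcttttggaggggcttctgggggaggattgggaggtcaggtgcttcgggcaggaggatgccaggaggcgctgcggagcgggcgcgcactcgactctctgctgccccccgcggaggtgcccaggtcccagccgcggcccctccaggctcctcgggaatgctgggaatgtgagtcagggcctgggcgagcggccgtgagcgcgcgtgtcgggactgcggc
Slc17a7: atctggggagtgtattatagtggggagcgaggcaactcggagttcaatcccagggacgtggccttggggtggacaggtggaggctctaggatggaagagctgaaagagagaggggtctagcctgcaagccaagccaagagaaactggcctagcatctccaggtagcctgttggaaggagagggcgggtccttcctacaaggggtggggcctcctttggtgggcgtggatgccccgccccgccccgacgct
Such windows were examined for 8 of the 10 members, with 9 windows in all since Ctbp2 had 2. The motif was found in 1 of the 9, the Ctbp2 window above, where its first base lies 121 bases before the start. Over all 32851 windows of the same length, 6.25% held it. A match of these letters is a description of the window and not of a bound site.

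Across the 10 genes, 1 fell after microbead injection and none rose at an adjusted p-value under 0.05 in edgeR's quasi-likelihood test. Over all genes tested, 12.8% passed the same threshold, 6.46% higher and 6.31% lower. The gene that fell was Erc2, and Slc17a7 was the only other member whose 3 microbead values all lay below its 3 saline values. Such groups without overlap were found for 37.8% of all genes, and for 18.9% in the lower direction. The log2 fold changes, microbead against saline, were above 0 for 4 members and below 0 for 6. Their median was -0.20, beside -0.03 over all genes tested. At an unadjusted p-value under 0.05, 2 members passed by edgeR, as did 5564 of all genes. Levels are given as counts per 1000000 of the scaled library size (CPM), and fold changes on the log2 scale, with 3 retinas in each group throughout.

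**Figure D1:**
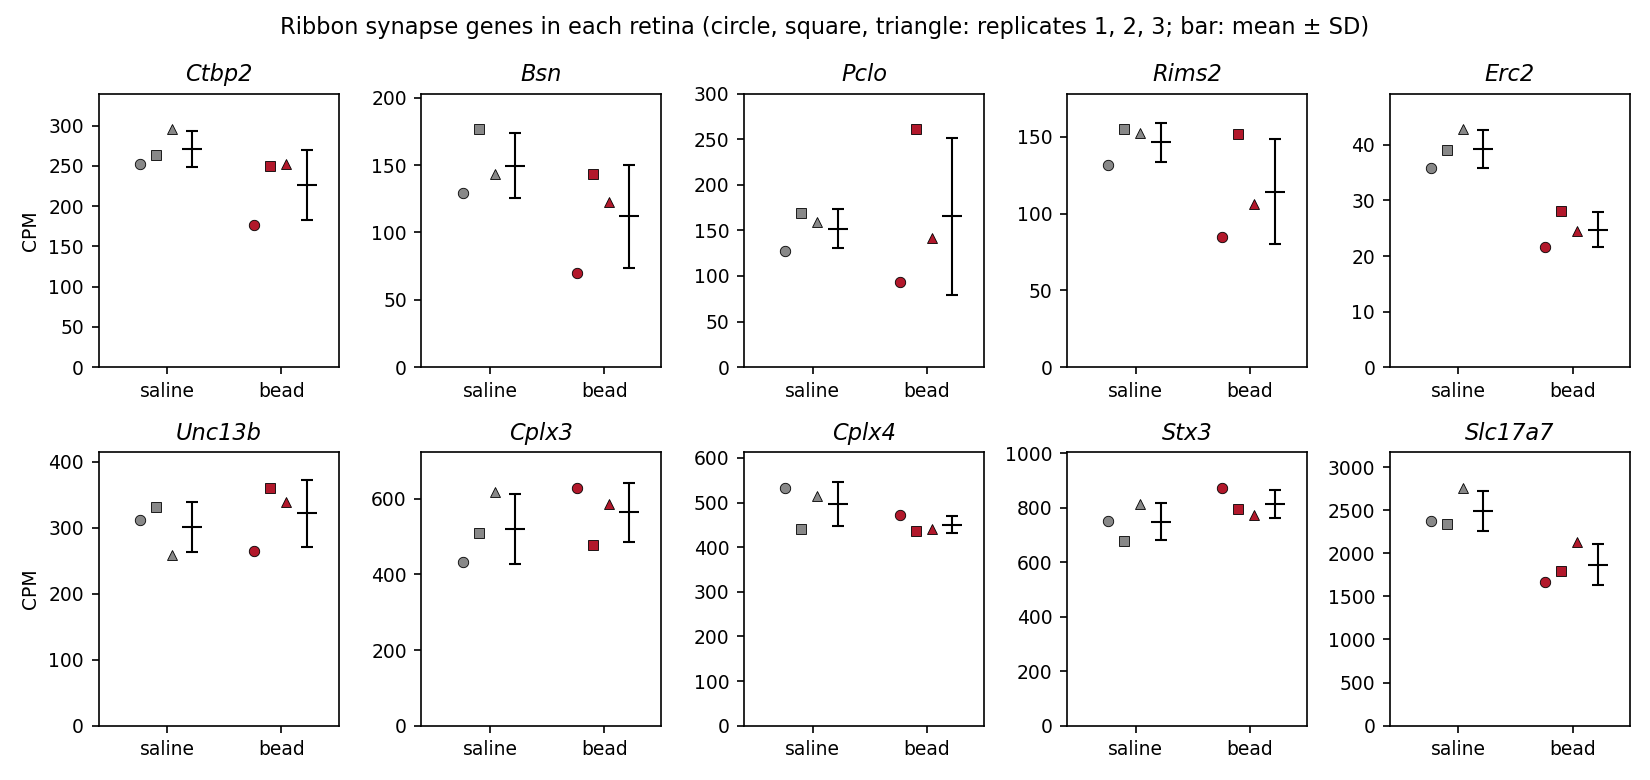
CPM of each of the 10 genes (vertical axes, each from 0) in the 3 saline and 3 microbead retinas, with circles, squares and triangles for replicates 1, 2 and 3 and the mean ± SD beside them. Erc2 and Slc17a7 are the 2 genes in which all microbead points lie below all saline points.

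Ctbp2 lies on chromosome 7 from 132987563 to 133124354 in GRCm38 (minus strand) and yields 2 kinds of protein. The annotated transcript that begins at 133015248, Ctbp2-214, encodes 988 amino acids and is the long ribbon form, RIBEYE. The transcript that begins at 133123367, Ctbp2-201, encodes 445 amino acids and is the transcriptional corepressor CtBP2. Counts were made per gene, so the ribbon form and the corepressor could not be separated. Ctbp2 was at 253, 264 and 296 CPM in saline retina and at 176, 250 and 253 CPM in microbead retina. Microbead replicate 1 was below the other 5 retinas, and the other 2 microbead values lay next to the lowest saline value. The means were 271 ± 22.2 and 227 ± 43.5 CPM (SD, n = 3), a log2 fold change of -0.26 with a standard error of 0.19 (adjusted p = 0.388, edgeR). The 95% interval of the log2 fold change ran from -0.68 to 0.17, and the value was -0.11 without microbead replicate 1. Of the exon bases of Ctbp2, 5.05% are shared with Fgfr2 on the same strand, and reads there cannot be assigned to one gene.

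Its close relative Ctbp1, a corepressor without the ribbon-specific domain of RIBEYE, was at 172, 187 and 207 CPM in saline retina and at 96.5, 88.0 and 114 CPM in microbead retina. Ctbp1 fell, with no overlap between the groups, from 189 ± 17.6 to 99.4 ± 13.0 CPM, a log2 fold change of -0.92 with a standard error of 0.17 (adjusted p = 0.0161, edgeR). It passed the threshold in 10 of 10 alternatives with all libraries and in 3 of 6 fits with 1 library left out. The adjusted p was 0.0630 without saline replicate 2, 0.0574 without microbead replicate 2 and 0.0700 without microbead replicate 3 in edgeR. The ratio of a member to its partner within a library does not depend on how libraries are scaled. The log2 ratio of Ctbp2 to Ctbp1 counts was 0.55, 0.50 and 0.51 in saline retina and 0.87, 1.51 and 1.16 in microbead retina. The 3 saline ratios lie within a narrow range and every microbead ratio lies above them. The ratio was thus 1.57-fold higher in microbead retina, a difference of 0.65 on the log2 scale, with an exact permutation p of 0.1, which is the smallest that 3 against 3 allow, and 0.2 after adjustment over the 6 ratios computed.

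**Figure D2:**
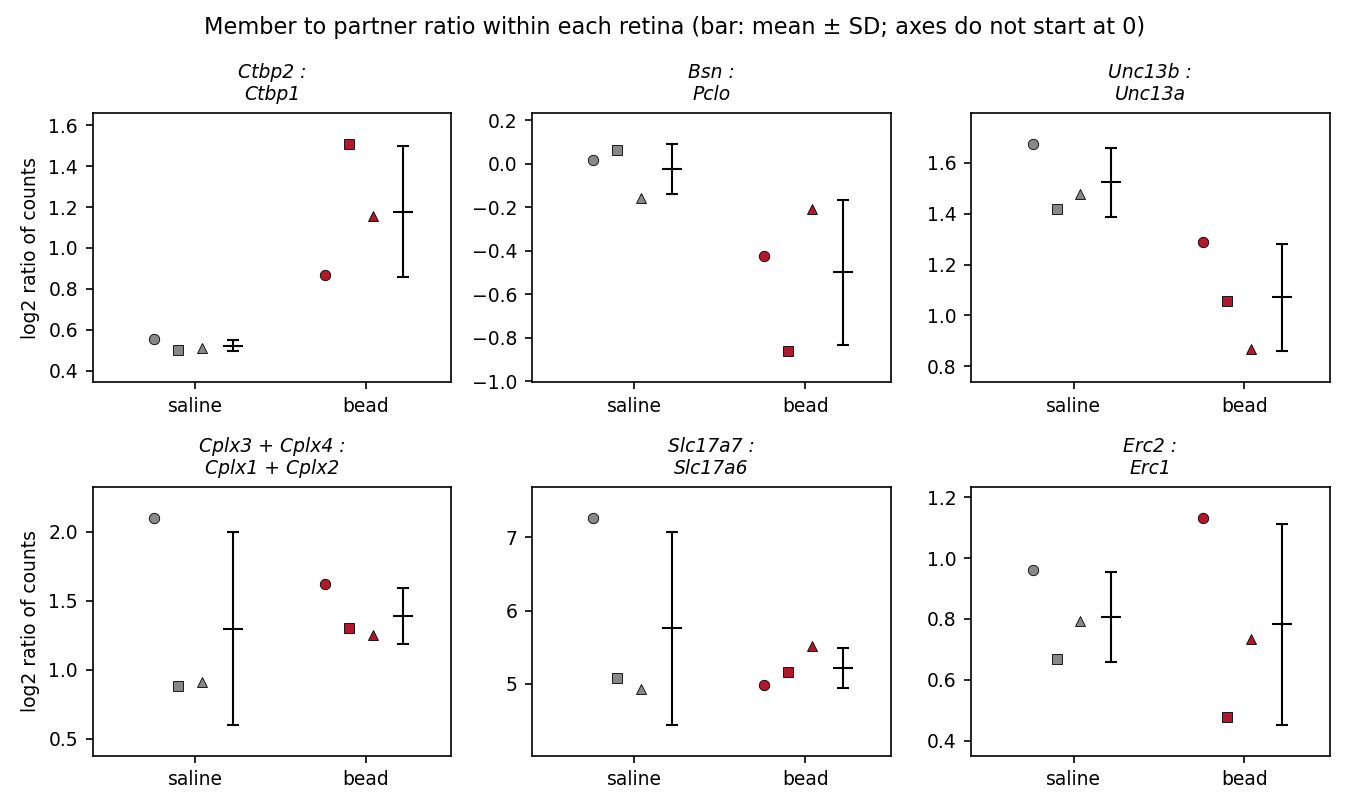
Log2 ratio of the counts of a member to those of its partner (vertical axes, not starting at 0) in each saline and microbead retina, with the mean ± SD. The microbead points lie above the saline points for Ctbp2 to Ctbp1, below them for Bsn to Pclo and Unc13b to Unc13a, and the groups overlap in the other 3 panels.

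Bassoon, encoded by Bsn on chromosome 9 from 108096022 to 108190384 (minus strand), is a giant scaffold protein that attaches the ribbon to the active zone. Bsn was at 129, 177 and 143 CPM in saline retina and at 69.7, 144 and 123 CPM in microbead retina. Microbead replicate 1 was the lowest of the 6 retinas, and the other 2 microbead values were inside or close to the saline range. Bsn changed by -0.42 on the log2 scale with a standard error of 0.26 (adjusted p = 0.306, edgeR), and the 95% interval of the change ran from -50.2% to 12.5%. The log2 value was -0.17 without microbead replicate 1 and -0.62 without microbead replicate 2.

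Piccolo, encoded by Pclo on chromosome 5 from 14514918 to 14863459 (plus strand), is the structural relative of bassoon, and a shorter variant of it is found at ribbons. Pclo was at 128, 169 and 159 CPM in saline retina and at 93.7, 261 and 142 CPM in microbead retina. The microbead retinas held both the lowest and the highest of the 6 values, and the spread among them, 165 ± 86.1 CPM, was the widest of any member relative to its mean. For Pclo the log2 fold change was 0.12 with a standard error of 0.33 (adjusted p = 0.832, edgeR), and its 95% interval ran from -0.61 to 0.85. The direction depended on single retinas: the log2 fold change was 0.40 without microbead replicate 1 and -0.35 without microbead replicate 2. Pclo exons overlap those of the antisense genes Gm26918 and Gm26954 over 1.91% and 2.21% of their length, and it was not stated whether counting used the strand.

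Within a retina, the log2 ratio of Bsn to Pclo was 0.017, 0.063 and -0.16 in saline retina and -0.43, -0.86 and -0.21 in microbead retina. The 2 scaffolds had near equal counts in saline retina, and Pclo had more than Bsn in each microbead retina. The difference of the means was -0.47 on the log2 scale (exact permutation p = 0.1, adjusted 0.2), from -0.03 ± 0.12 to -0.50 ± 0.33, and it was -0.29 without microbead replicate 2.

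RIM2, encoded by Rims2 on chromosome 15 from 39198261 to 39684372 (plus strand), is an active zone protein that supports the opening of calcium channels at photoreceptor terminals. Rims2 was at 132, 155 and 153 CPM in saline retina and at 85.1, 152 and 106 CPM in microbead retina. Microbead replicate 2 matched the upper saline values, and the other 2 microbead retinas were below all saline retinas. For Rims2 the log2 fold change was -0.36 with a standard error of 0.22 (adjusted p = 0.301, edgeR), and its 95% interval ran from -0.86 to 0.14. It was -0.19 without microbead replicate 1 and -0.60 without microbead replicate 2.

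Long transcripts as a class differed between the same retinas. Over the 399 tested genes with a longest transcript of at least 10000 bases, the median log2 deviation, less that of all genes, was -0.0075, 0.23 and 0.07 in saline retina and -0.43, 0.19 and -0.15 in microbead retina. Microbead replicate 1 was thus the lowest and microbead replicate 2 the highest among microbead retinas, as for Bsn, Pclo and Rims2. The longest transcripts of Bsn, Pclo and Unc13b reach 15938, 20084 and 14754 bases, while that of Rims2 is 4800 bases. Unc13b was lowest in saline replicate 3 (258 CPM), with 265 CPM in microbead replicate 1. Ctbp2, Erc2 and Slc17a7, with longest transcripts of 3604, 6233 and 3080 bases, were also lowest in microbead replicate 1. Cplx3, Cplx4 and Stx3 were not. The cause of the low values in microbead replicate 1 was not tested. The median log2 fold change of the long class was -0.22, and 9.02% of it passed the threshold. With an offset for GC content and length in the fit, the log2 fold change was -0.13 for Bsn, 0.23 for Pclo, -0.28 for Rims2 and 0.32 for Unc13b. The same fit gave -0.31 for Cplx4, 0.0085 for Cplx3 and -0.52 for Erc2, which was the only member past the threshold in it (adjusted p = 0.0469, edgeR).

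**Figure D3:**
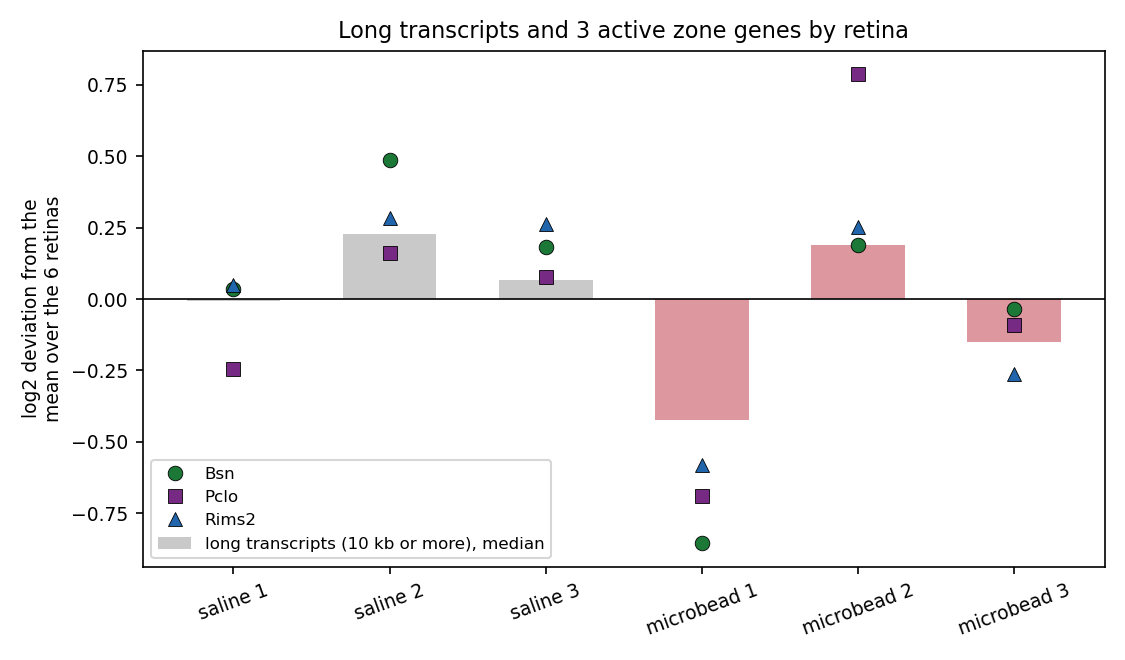
Bars show the median log2 deviation of the 399 genes with long transcripts, less the median of all genes, in each retina, and points show log2 CPM of Bsn, Pclo and Rims2 as the deviation from the mean of the 6 retinas. All 3 genes and the bar are lowest in microbead replicate 1, and the bar and all 3 genes are above 0 in microbead replicate 2.

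ELKS2, also called CAST and encoded by Erc2 on chromosome 14 from 27622428 to 28478537 (plus strand), binds RIM and bassoon at the active zone and supports the size of ribbon synapses in rods. Erc2 was at 35.9, 39.1 and 42.8 CPM in saline retina and at 21.7, 28.1 and 24.6 CPM in microbead retina. All 3 microbead values lay below all 3 saline values. Erc2 fell by 37.0%, from 39.3 ± 3.49 to 24.8 ± 3.22 CPM, a log2 fold change of -0.67 with a standard error of 0.18 and a 95% interval from -1.06 to -0.27 (adjusted p = 0.0403, edgeR). The call lies close to the threshold. The log2 fold change kept its sign in every fit and ran from -0.75 to -0.58 with 1 library left out, and the call held in 1 of those 6 fits, with adjusted p-values from 0.0401 to 0.138 in edgeR. With all libraries it held in 8 of 10 alternatives, with adjusted p-values from 0.0144 to 0.101. The smallest Erc2 count in a library was 378. Its exons overlap an antisense gene, Gm45645, over 1.09% of their length.

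Its relative Erc1, which encodes the broadly expressed ELKS1, was at 18.4, 24.6 and 24.7 CPM in saline retina and at 9.88, 20.1 and 14.7 CPM in microbead retina. The groups overlapped, and the log2 fold change was -0.60 with a standard error of 0.27 (adjusted p = 0.164, edgeR). The log2 ratio of Erc2 to Erc1 was 0.81 ± 0.15 in saline retina and 0.78 ± 0.33 in microbead retina, a difference of -0.02 (exact permutation p = 0.9) that ran from -0.20 to 0.13 with 1 library left out. The exons of Erc1 overlap an antisense gene over 11.8% of their length.

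Munc13-2, encoded by Unc13b on chromosome 4 from 43058953 to 43264871 (plus strand), primes vesicles for fusion, and its ubiquitous variant is the main Munc13 of photoreceptor terminals. Unc13b was at 311, 332 and 258 CPM in saline retina and at 265, 361 and 340 CPM in microbead retina. The groups overlapped over most of their range. For Unc13b the log2 fold change was 0.10 with a standard error of 0.19 and a 95% interval from -0.32 to 0.52 (adjusted p = 0.760, edgeR). Unc13a, the Munc13-1 gene of conventional synapses, was at 97.6, 124 and 92.8 CPM in saline retina and at 108, 174 and 186 CPM in microbead retina. Its log2 fold change was 0.57 (adjusted p = 0.125, edgeR), and with an offset for GC content and length the adjusted p was 0.0171. That was the only call of Unc13a among the 10 alternatives with all libraries. It was called in 0 of 6 fits with 1 library left out. Unc13c, the Munc13-3 gene, had a log2 fold change of -0.40 (adjusted p = 0.352, edgeR). The log2 ratio of Unc13b to Unc13a was 1.67, 1.42 and 1.48 in saline retina and 1.29, 1.06 and 0.87 in microbead retina. Every microbead ratio was below every saline ratio, by -0.45 between the means (exact permutation p = 0.1, adjusted 0.2).

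Complexins bind the assembled fusion complex and control how readily vesicles fuse. Cplx3, on chromosome 9 from 57599992 to 57606281 (minus strand), and Cplx4 encode the ribbon complexins, Cplx3 being found in cones, rod bipolar cells and some amacrine cells and Cplx4 in rods. Cplx3 was at 433, 509 and 617 CPM in saline retina and at 629, 478 and 585 CPM in microbead retina. Cplx4 was at 533, 441 and 515 CPM in saline retina and at 473, 437 and 441 CPM in microbead retina. Both genes overlapped between the groups. In edgeR the log2 fold change was 0.12 with a 95% interval from -0.32 to 0.56 for Cplx3 (adjusted p = 0.719, edgeR) and -0.14 with an interval from -0.51 to 0.23 for Cplx4 (adjusted p = 0.600, edgeR).

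The complexins of conventional synapses, Cplx1 and Cplx2, were spread more widely. Cplx1 was at 64.2, 163 and 199 CPM in saline retina and at 182, 154 and 207 CPM in microbead retina, and Cplx2 was at 161, 353 and 402 CPM and at 177, 218 and 224 CPM. In both genes saline replicate 1 was far below the other saline retinas. Neither passed the threshold with all libraries (log2 fold changes of 0.35 and -0.57, adjusted p = 0.528 and 0.234, edgeR), and Cplx2 was lower with an adjusted p of 0.0226 without saline replicate 1. The log2 ratio of Cplx3 plus Cplx4 to Cplx1 plus Cplx2 was 2.10, 0.88 and 0.91 in saline retina and 1.62, 1.30 and 1.25 in microbead retina, a difference of 0.09 (exact permutation p = 1.0). The sign of this difference was not stable: it was 0.49 without saline replicate 1, -0.12 without saline replicate 2, -0.10 without saline replicate 3, -0.024 without microbead replicate 1 and -0.13 with counts taken per base of exon.

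Syntaxin 3, encoded by Stx3 on chromosome 19 from 11775118 to 11819403 (minus strand), is the syntaxin of ribbon terminals in the fusion complex, and it also serves protein delivery in photoreceptors. Stx3 was at 752, 680 and 815 CPM in saline retina and at 874, 796 and 774 CPM in microbead retina. The spread was small in both groups and the ranges overlapped. For Stx3 the log2 fold change was 0.12 with a standard error of 0.17 and a 95% interval from -0.25 to 0.50 (adjusted p = 0.658, edgeR). Stx1a, a syntaxin of conventional synapses, was at 8.45, 10.8 and 12.7 CPM in saline retina and at 13.6, 11.6 and 16.4 CPM in microbead retina, and its log2 fold change was 0.39 (adjusted p = 0.305, edgeR).

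VGLUT1, encoded by Slc17a7 on chromosome 7 from 45163949 to 45176142 (plus strand), loads glutamate into the vesicles of photoreceptors and bipolar cells. Slc17a7 was at 2372, 2334 and 2760 CPM in saline retina and at 1670, 1794 and 2129 CPM in microbead retina. All 3 microbead values were below all 3 saline values, with the nearest values of the groups at 2129 and 2334 CPM. The means were 2489 ± 236 and 1864 ± 238 CPM, a log2 fold change of -0.42 with a standard error of 0.18, and the 95% interval ran from -0.83 to -0.0068. The adjusted p was 0.154 in edgeR, so that Slc17a7 did not pass the threshold, and it passed in none of the 10 alternatives with all libraries, where the adjusted p ran from 0.0779 to 0.225.

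Slc17a6 encodes VGLUT2, which loads glutamate in ganglion cells. It was at 15.4, 69.4 and 91.0 CPM in saline retina and at 52.8, 50.3 and 46.6 CPM in microbead retina. The microbead retinas were close to each other, and saline replicate 1 was far below the other 5 retinas. For Slc17a6 the log2 fold change was -0.23 with a standard error of 0.49 (adjusted p = 0.783, edgeR), and without saline replicate 1 it was -0.69 (adjusted p = 0.0460, edgeR). The log2 ratio of Slc17a7 to Slc17a6 was 7.27, 5.07 and 4.92 in saline retina and 4.98, 5.16 and 5.51 in microbead retina, and the difference of -0.54 (exact permutation p = 0.9) turned on saline replicate 1, without which it was 0.22.

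The partner genes as a list held 1 call among the 8 that could be tested, the fall of Ctbp1, beside 12.8% of all genes. Their median log2 fold change was -0.32, beside -0.20 for the ribbon genes and -0.03 for all genes tested. Saline replicate 1 was the lowest saline retina for 7 of the 8 partners and for 6 of the 10 members, with the widest gaps in Slc17a6, Cplx1, Cplx2 and Unc13c. In the same library the summed CPM of 8 ganglion cell markers was 313, against 894 and 1151 in the other saline retinas and 777 to 1056 in microbead retina. The sum of 8 amacrine markers was 828 there, against 1427 and 1711, and 1086 to 1302 in microbead retina. No marker of either list was past the threshold. The part of these cells in the partner values was not tested. Without saline replicate 1, 4 partners were called, all lower (Ctbp1, Cplx2, Unc13c and Slc17a6), beside 2621 of the 17321 genes tested in that fit. Erc2 was still the only member called.

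**Figure D4:**
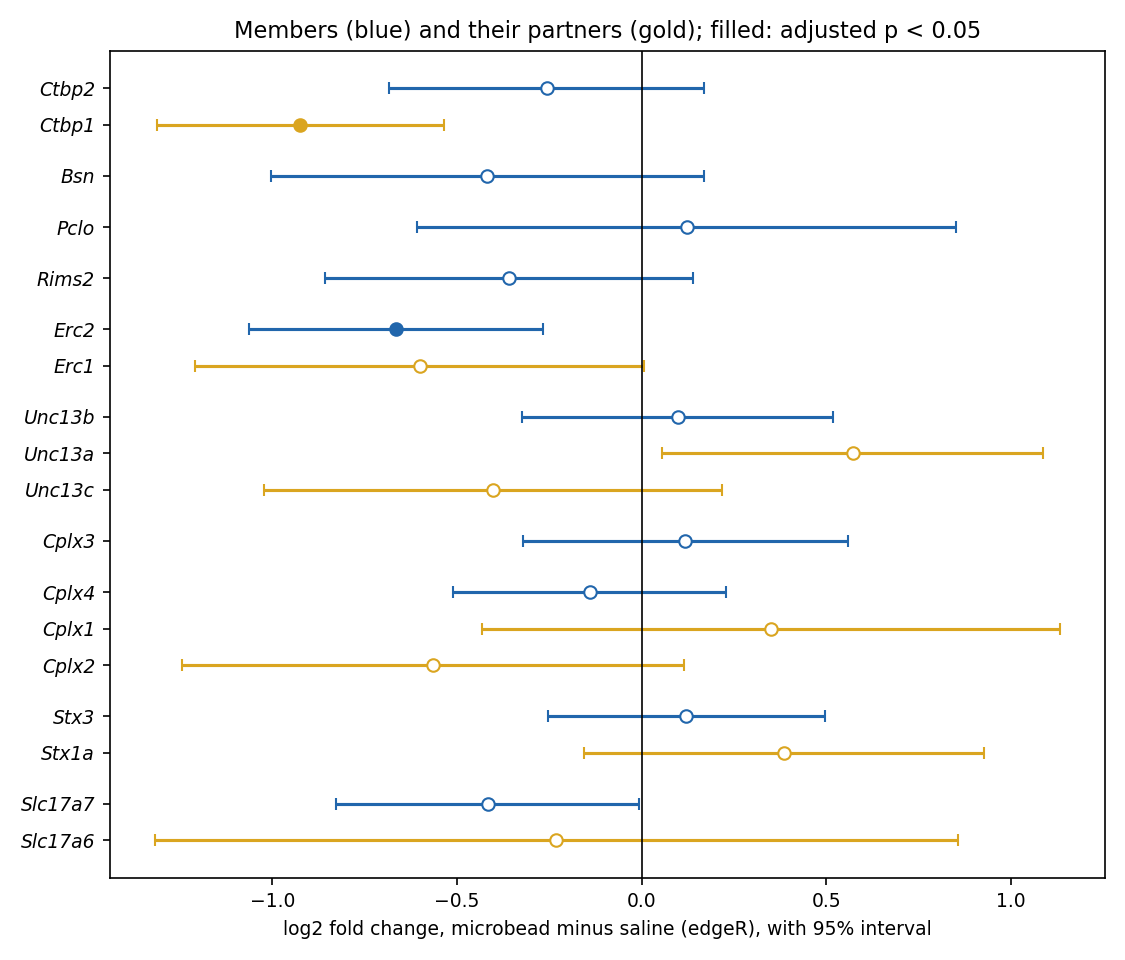
Log2 fold change, microbead against saline, of the 10 members (blue) and 8 partners (gold), with 95% intervals from edgeR, filled where the adjusted p is under 0.05. Erc2 and Ctbp1 are the 2 filled points, and the widest interval is that of Slc17a6.

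Markers of the cells that carry ribbons were at overlapping levels in both groups. The summed CPM of 10 rod markers was 63924 to 84934 in saline retina and 59260 to 73147 in microbead retina. That of 8 cone markers was 1117 to 1367 and 1251 to 1535, and that of 10 bipolar markers 1413 to 1837 and 1347 to 1724. The ranges overlapped for each of the 3 lists, with 1 rod marker called higher and 1 lower, 1 cone marker higher and 1 bipolar marker higher. Of 6 Müller glia markers 2 were called lower, and their sum was 3878 to 7768 CPM and 3777 to 4381 CPM. These calls stand beside 12.8% of all genes tested, 6.46% higher and 6.31% lower. Markers from outside the neural retina were low, with sums of 10.2 to 165 and 91.0 to 106 CPM for 8 pigment epithelium genes and of 1.14 to 9.07 and 0.722 to 1.62 CPM for lens genes. The sum of the 10 ribbon genes was 5078 to 5759 CPM in saline retina and 4358 to 4918 CPM in microbead retina, without overlap. That separation came from Slc17a7: the other 9 genes summed to 2707, 2766 and 2999 CPM in saline retina and to 2688, 2907 and 2789 CPM in microbead retina, which overlap.

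Per kilobase of exon, with the exons of all annotated transcripts of a gene joined, the genes spanned 2 orders of abundance. This length can exceed the longest transcript, at 10389 against 4800 bases for Rims2 and 22746 against 14754 for Unc13b. For Stx3 it is 5711 against 3068 bases, while for Cplx3 it is 2953 against 2859. The order was not taken with the longest transcript, and neighbours such as Cplx3 and Stx3 could stand otherwise with it. In saline retina the order was Slc17a7 (462 ± 43.7 CPM per kb), Cplx4 (256 ± 25.2), Cplx3 (176 ± 31.3), Stx3 (131 ± 11.8), Ctbp2 (43.5 ± 3.57), Rims2 (14.1 ± 1.23), Unc13b (13.2 ± 1.67), Bsn (9.38 ± 1.53), Pclo (6.77 ± 0.966) and Erc2 (4.04 ± 0.358), each in CPM per kb. The vesicle and fusion genes were thus the most abundant and the giant scaffolds and Erc2 the least. By this joined exon length, the values of Rims2 and Unc13b overlapped over the 3 saline retinas, and no other neighbours in this order did. In microbead retina the order was the same except that Unc13b stood above Rims2 and Pclo above Bsn.

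Other proteins of the photoreceptor and bipolar terminal were examined as a list of 16 genes, of which 15 were tested. After microbead injection 2 rose and 1 fell, beside 6.46% higher and 6.31% lower over all genes, and the median log2 fold change was 0.26. Rimbp2 encodes RIM-binding protein 2, which links RIM to calcium channels. It was at 25.4, 38.7 and 32.1 CPM in saline retina and at 65.3, 75.0 and 74.3 CPM in microbead retina. Rimbp2 rose in all 3 microbead retinas above all saline retinas, a log2 fold change of 1.16 with a standard error of 0.19 (adjusted p = 0.0141, edgeR), and this was called in 10 of 10 alternatives and in 5 of 6 fits with 1 library left out, the exception being microbead replicate 3 (adjusted p = 0.0733 without it, edgeR). Dlg4, the gene of the scaffold PSD-95, which in the retina is abundant in photoreceptor terminals, was at 653, 615 and 620 CPM in saline retina and at 829, 1052 and 1186 CPM in microbead retina. It rose by 0.70 on the log2 scale (adjusted p = 0.0400, edgeR), a call that held in 8 of 10 alternatives and, of the 6 fits with 1 library left out, without microbead replicate 1 alone. Egflam encodes pikachurin, a matrix protein of the photoreceptor synaptic cleft. It was at 332, 271 and 395 CPM in saline retina and at 167, 177 and 200 CPM in microbead retina. Egflam fell, with a log2 fold change of -0.88 (adjusted p = 0.0227, edgeR), a call that held in 9 of 10 alternatives and, of the 6 fits with 1 library left out, without saline replicate 1 and without saline replicate 3. Cabp4 had 0 counts in 5 libraries and 1 count in microbead replicate 1, so no fold change was tested for it. The reason for these counts is not known, and they are not read here as absence of expression.

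Of 10 genes of the general release machinery, 1 rose and 2 fell, beside the same shares of all genes. Vamp2, the vesicle SNARE synaptobrevin 2, rose from 1046 ± 102 to 1797 ± 138 CPM, a log2 fold change of 0.78 (adjusted p = 0.0247, edgeR). Rab3a, a vesicle GTPase, fell by 1.11 on the log2 scale (adjusted p = 0.0364, edgeR), and Syt1, the calcium sensor synaptotagmin 1, fell by 0.72 (adjusted p = 0.0487, edgeR). In the 10 alternatives with all libraries, Vamp2 was called in 8, Rab3a in 7 and Syt1 in 4. With 1 library left out, Rab3a and Syt1 were called without saline replicate 1 alone (adjusted p = 0.0132 and 0.0197, edgeR) and Vamp2 without saline replicate 1 or 3. Of 20 genes of the vesicle cycle, none rose and 2 fell, beside 12.8% of all genes. They were Dnajc5, the chaperone cysteine string protein, with a log2 fold change of -0.95 (adjusted p = 0.0149, edgeR), and Cltc, the clathrin heavy chain, with -0.92 (adjusted p = 0.0320, edgeR). Dnajc5 was not called without saline replicate 2 or microbead replicate 3 (adjusted p = 0.0584 and 0.0773, edgeR), and Cltc was called, of the fits with 1 library left out, without saline replicate 1 alone. With all libraries, Dnajc5 was called in 9 and Cltc in 7 of the 10 alternatives. It was below 0 on the log2 scale in 16 of these 20 genes, and their median was -0.36.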

How the data were processed

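The authors aligned paired reads of stranded poly(A) libraries with STAR 2.5.3a to GRCm38.p5 with GENCODE vM12 and counted reads per gene with featureCounts 1.15.2, and they deposited these counts without normalization. Whether counting used the strand, and how reads with several positions were treated, is not given in the sources used here. The deposited table also holds the authors' DESeq2 comparison (means, fold changes, p-values and calls), which was not used. Every column of per-sample counts was used, and groups were taken from the sample labels.

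Low genes were removed by filterByExpr with a minimum count of 10 and a minimum total of 15. After TMM scaling, a two-sided quasi-likelihood test was run in edgeR 4.0.16 (R 4.3.3), and p-values were adjusted by Benjamini-Hochberg over 17707 genes, with a threshold of 0.05. Intervals are at the 95% level. Differences of ratios were put to an exact permutation test, two-sided (scipy 1.17.1). A floor of 3 counts equals 0.217 CPM in the smallest library and 0.0622 CPM in the largest, for counting error only. No library copied another of its group (chi-square per degree of freedom of 20.7 or more). Positions, exon lengths and overlaps come from GENCODE vM21 on GRCm38, which holds 99.64% of the tested genes. A row named Rims1 carries an identifier that vM21 does not give to that gene, so Rims1 and the planned ratio to it were left out. A further planned partner gene, with the ratio that needs it, is not reported here. Tspoap1 is listed in the counts under its older name Bzrap1.

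The members, lists and tests were chosen with earlier results of these data known. All members and the other partners are named. Of each other list, up to 2 rises and 2 falls with the largest change among genes past the threshold are named, and Cabp4 for its near absence of counts. The settings varied were scaling (RLE, upper quartile, or sizes that leave out the top 100 genes), the filter (none, or 10 counts in all libraries), the tool (DESeq2 1.42.0 or voom in limma 3.58.1), a block on replicate number, a GC and length offset by splines of 5 degrees of freedom alone or with that block, and the omission of single libraries. The steps were tested on simulated data.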

Additional observations from a re-analysis of the deposited data

How the results depend on the processing

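The number of members called was 1, Erc2, under the 3 other scalings, both other filters, DESeq2, limma-voom and the GC and length offset. No label pairs the retinas by replicate number. The deviations of same-numbered samples correlated with r = -0.0351, 0.136 and 0.00997, and those of differently numbered samples with r from -0.196 to 0.143. With 3 libraries in each group these values cannot exclude a pairing. With the replicate number as a block, 905 genes were called over all genes (480 higher, 425 lower), 0 members, 1 release machinery gene and 1 vesicle cycle gene, and with the block and the GC and length offset together 1023 (610 higher, 413 lower), 0 members, 1 terminal gene, 0 release genes and 0 vesicle genes. Without a filter the count over all genes was 3720 (1511 higher, 2209 lower), with 5 terminal and 6 vesicle genes, and by DESeq2 it was 3582, with 7 terminal genes. Limma-voom called 2210 over all genes, with 1 release gene. The GC and length offset called 2703 over all genes, with 2 partners, 5 terminal genes and 1 release gene. With 1 library left out, the count over all genes ran from 46 (without microbead replicate 3) to 2621 (without saline replicate 1), and was 293 without saline replicate 2, 748 without microbead replicate 1 and 768 without microbead replicate 2. Members called then ran from 0 to 1, partners from 0 to 4, terminal genes from 0 to 4, release genes from 0 to 3 and vesicle genes from 0 to 5. Without both replicate 1 libraries, an alternative chosen after seeing the data, 0 members, 5 partners, 5 terminal and 5 vesicle genes were called. The count over all genes is not given here for that fit, so these list counts cannot be read against it. Erc2 lost its call there (adjusted p = 0.0569, edgeR) and with any library but saline replicate 1 left out, and the cause was not tested. Signs turned only for log2 fold changes that had not passed the threshold. Slc17a6 was at 0.12 by limma-voom, 0.073 with the block and 0.097 with the block and offset. Without both replicate 1 libraries Cplx3 was at -0.085 and Cplx1 at -0.0041. With 1 library left out, ranges that crossed 0 were -0.0020 to 0.67 for Cplx1, -0.0015 to 0.22 for Unc13b, -0.69 to 0.23 for Slc17a6 and -0.35 to 0.40 for Pclo. Ratios were recomputed without a test under the alternatives, since 3 against 3 retinas cannot give an exact permutation p under 0.1. No member had fewer than 378 counts in a library.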

Other observations

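Among the terminal genes, the photoreceptor calcium channel genes Cacna1f and Cacnb2 stood next to the threshold, and they are named here after their values were seen. Cacna2d4, another calcium channel gene of this list, did not. Its log2 fold change was 0.26 (adjusted p = 0.343, edgeR), with overlap between the groups. Cacna1f, the pore subunit of the photoreceptor channel, was at 321, 271 and 210 CPM in saline retina and at 335, 539 and 526 CPM in microbead retina. Its log2 fold change was 0.80 with a standard error of 0.24 (adjusted p = 0.0544, edgeR). Cacnb2, its auxiliary subunit, was at 173, 198 and 124 CPM and at 227, 264 and 260 CPM, a log2 fold change of 0.60 (adjusted p = 0.0769, edgeR). Mpp4, a scaffold of the photoreceptor terminal, was at 395, 320 and 313 CPM and at 427, 480 and 490 CPM, a log2 fold change of 0.44 (adjusted p = 0.116, edgeR). In Cacna1f, Cacnb2 and Mpp4 every microbead value was above every saline value, which held in the higher direction for 18.8% of all genes. None of these 3 passed the threshold in the fit described above. Across the 10 alternatives with all libraries, Cacna1f was called in 6, Cacnb2 in 2 and Mpp4 in 1, with adjusted p-values from 0.00791 to 0.108, 0.0248 to 0.0994 and 0.0498 to 0.273 by edgeR, DESeq2 or limma. With 1 library left out, Cacna1f was called in 2 of 6 fits, and Cacnb2 and Mpp4 in 0 of 6. The adjusted p then ran up to 0.180, 0.201 and 0.348 in edgeR. Tspoap1, the relative of Rimbp2, was at 112, 92.1 and 37.9 CPM in saline retina and at 104, 196 and 201 CPM in microbead retina, a log2 fold change of 1.05 (adjusted p = 0.0974, edgeR), with overlap between the groups.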
